A study of Mus musculus with 12 samples.

Results

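The genes that encode the proteasome, the protease complex that degrades ubiquitin-tagged proteins, were followed in mouse liver mRNA over the light:dark cycle. They were taken by name, as every gene whose symbol begins with *Psma*, *Psmb*, *Psmc*, *Psmd*, *Psme*, *Psmf* or *Psmg* and a number, which gave 45 of the 20069 genes listed. RNA-Seq libraries were made from whole liver of C57BL/6 mice, wild-type males 3 to 6 months old, which had been kept under 12 hr of light and 12 hr of dark for at least 2 weeks. Livers were taken at 6 zeitgeber times (ZT, hours after lights on): ZT2, ZT6 and ZT10 in the light and ZT14, ZT18 and ZT22 in the dark. The cycle was sampled in 2 independent series, so that each time has 2 libraries and the study 12. How many mice stand behind a library is not given in the sources used here, and p-values measure only the spread between these libraries. Expression is given in reads per base pair of exon (rpbp) on a scale of 40000000 sequences per library. The length is that of all exons of a gene, whatever the isoform, so levels of different genes compare only roughly.

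The 26S proteasome is built from a barrel-shaped 20S core and a 19S regulatory particle. The core has outer rings of alpha subunits (*Psma* genes), which gate the entry, and inner rings of beta subunits (*Psmb* genes), of which *Psmb5*, *Psmb6* and *Psmb7* encode the catalytic subunits. In cells exposed to interferon these can be replaced by the immune subunits encoded by *Psmb8*, *Psmb9* and *Psmb10*, which changes the peptides made for MHC class I presentation. The 19S particle has a ring of ATPases that unfold the substrate (*Psmc* genes) and non-ATPase subunits that receive and deubiquitinate it (most *Psmd* genes). *Psme1* and *Psme2* encode the PA28 activator, *Psme3* the nuclear PA28gamma, *Psme4* PA200, *Psmf1* the regulator PI31 and *Psmg3* an assembly chaperone. Genes of the constitutive subunits are known to be induced together by the transcription factor encoded by *Nfe2l1* when proteasome activity is short.

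Expression was taken as a value above 8 rpbp in 1 library or more, which 43 of the 45 genes and 10198 genes in all reached. The exceptions were *Psma8*, the testis alpha subunit, at 0.56 to 3.16 rpbp, and *Psmc3ip*, a meiotic recombination factor that shares only the name pattern, at 0.04 to 1.8 rpbp. Among the others *Psmb4*, a structural beta subunit, had the highest mean at 257 rpbp, and *Psmf1* the lowest at 14.4 rpbp. Median levels were 131.8 rpbp for the 7 expressed alpha-ring genes, 165 for the 7 constitutive beta-ring genes, 106 for the 6 ATPase genes and 80.7 for the 14 *Psmd* genes. The immune subunit genes had a median of 47.7 rpbp. Of the 43 genes, *Psmf1* and, at 22.1 rpbp, *Psmd10*, which encodes gankyrin, a chaperone of the ATPase ring, had a mean below 22.9 rpbp, the median over all expressed genes. Libraries taken at the same time differed little: the median within-time SD was 6.43% of the mean for the proteasome genes and 10.8% for all expressed genes, and it was 23.2% for the immune subunits.

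Rhythm was measured by F24, the share of a gene's variance over the 12 libraries that lies in a 24 hr cosine, with a permutation p from 100000 random orders of the libraries, and by amplitude, the ratio of a gene's highest library to its lowest. With the limits of the study (p under 0.05, F24 over 0.45, amplitude over 1.5), 7 of the 43 proteasome genes were rhythmic, or 16.3%, against 19.1% of all expressed genes. They were *Psma1*, *Psma2* and *Psma5* of the alpha ring, *Psmd4*, *Psmd11* and *Psmd14* of the regulatory particle, and the chaperone gene *Psmd10*. None reached the strong class, with a higher F24 and a wider amplitude, which held 7.89% of all genes. An amplitude over 1.5 was found in 12 of the 43 genes, or 27.9%, against 64.3% of all expressed genes. Without the amplitude limit, 23 genes, or 53.5%, passed the p and F24 limits, against 26.2% of all genes. The proteasome genes had a median mean of 98.1 rpbp and all expressed genes 22.9, with median within-time SDs of 6.43% and 10.8%. The part of these differences in the shares was not tested. After Benjamini-Hochberg adjustment over the 10198 genes the permutation test kept 4 genes, *Psmd2*, *Psma1*, *Psma5* and *Psmd3* (adjusted p 0.0158, 0.0158, 0.0404 and 0.048), or 9.30%, against 5.82% of all genes. A cosine fitted in limma on log2(rpbp + 1) also called 4 at an adjusted p under 0.05, *Psma1*, *Psma5*, *Psmd2* and *Psmd11*, against 9.22% of all genes. The 7 rhythmic calls depended on single libraries and on the scaling: 3 remained after rescaling the libraries to a common median ratio, 2 without ZT2 of series 1, 2 without ZT14 of series 2, and 0 when the amplitude was taken from the time-point means. The count of 23 moved less, to between 19 and 24 when any single library was left out.

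**Figure D1:**
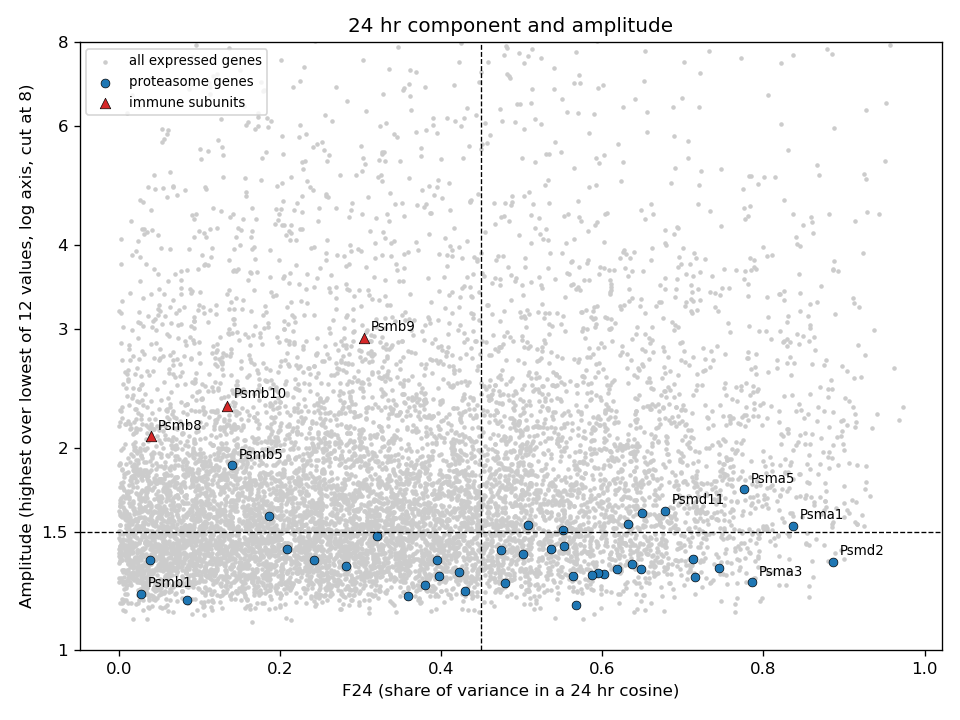
Amplitude (highest over lowest of 12 values, log axis) against F24 for all expressed genes (grey), the proteasome genes (blue) and the immune subunits (red triangles); dashed lines mark F24 0.45 and amplitude 1.5. Most proteasome genes lie below the amplitude limit, 16 of them to the right of the F24 limit with p under 0.05, and the 3 immune subunits lie high and to the left.

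All 7 expressed genes of the alpha ring, *Psma1* to *Psma7*, passed the p and F24 limits, against 26.2% of all genes. Of 19 alternatives that kept both series, *Psma7* kept this call in 12 and *Psma2* in 17. The other alpha genes kept it in 18 or 19. Their F24 lay between 0.552 and 0.837, and their cosines peaked between 2.60 and 6.23 hr. At ZT2, 6, 10, 14, 18 and 22, *Psma1* stood at 129.6, 116, 106, 90.2, 90.9 and 99.5 rpbp in series 1 and 108, 115, 106, 84.8, 90.9 and 106 rpbp in series 2. All 6 libraries of the light phase were above all 6 of the dark phase, ZT22 of series 2 only just below both ZT10 libraries, and the lowest values were at ZT14 and ZT18. Its F24 was 0.837 with a peak at 4.00 hr and an amplitude of 1.53. *Psma5* stood at 95.6, 91.7, 69.0, 71.9, 68.6 and 76.1 rpbp in series 1 and 82.8, 85.4, 70.4, 55.1, 67.3 and 88.9 rpbp in series 2 over the same times. It was high at ZT2 and ZT6 in both series and at ZT22 in series 2. Its lowest value, at ZT14 of series 2, lay well under the other ZT14 library. Its F24 was 0.776 and its amplitude of 1.73 was the widest of the rhythmic members. *Psma2* stood at 146, 133, 127, 131, 122 and 122 rpbp in series 1 and 139, 137, 137, 96.9, 111 and 134 rpbp in series 2. Its amplitude of 1.51 was just past the limit and came from the single low library at ZT14 of series 2. *Psma3* (F24 0.786, adjusted permutation p 0.0599) and *Psma4* (F24 0.637, adjusted permutation p 0.0981) had amplitudes of 1.26 and 1.34. *Psma3*, *Psma6* and *Psma7* peaked at 6.09, 6.17 and 6.23 hr. *Psma6* and *Psma7* had F24 of 0.553 and 0.563.

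**Figure D2:**
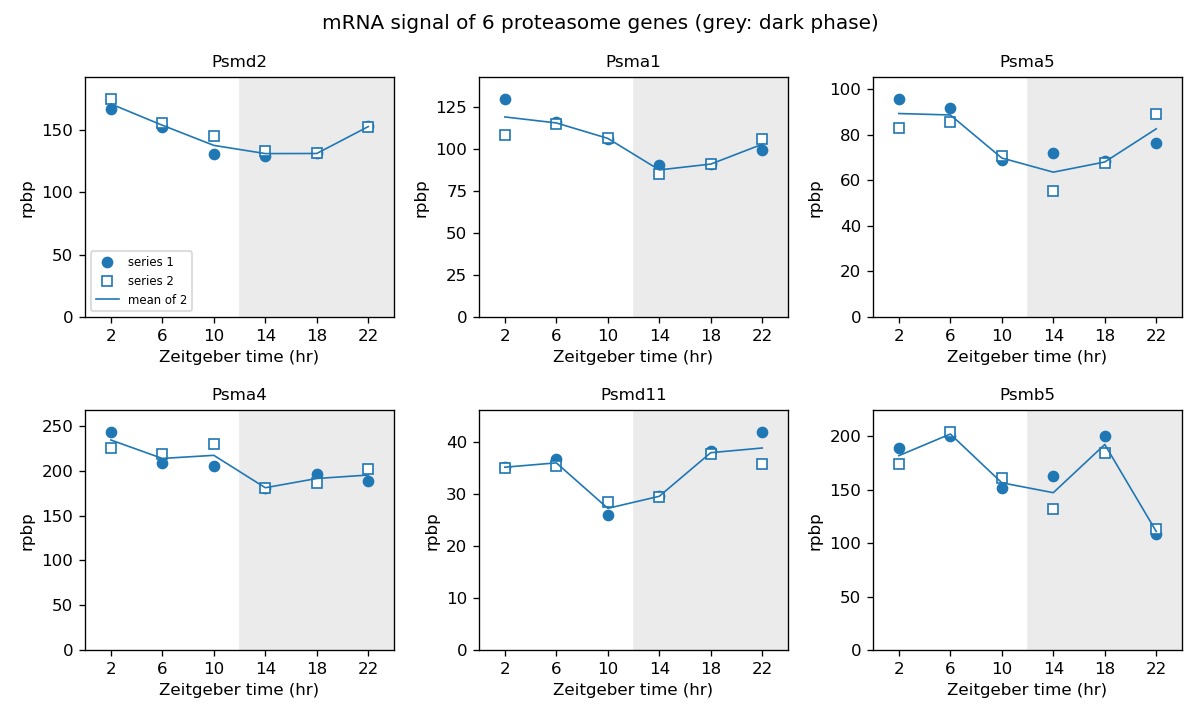
mRNA level (rpbp) against zeitgeber time (hr) for 6 proteasome genes; filled circles are series 1, open squares series 2, lines the mean of both, grey the dark phase. The means of *Psmd2*, *Psma1*, *Psma5* and *Psma4* are highest at ZT2, *Psmd11* is lowest at ZT10, and *Psmb5* is lowest at ZT22 in both series.

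Some promoters are shown because clock, stress and interferon factors are known to act through short motifs. Of the genes of the name pattern 38, *Psmc3ip* among them, matched a RefSeq promoter (GRCm38.p6; 250 bases before to 50 after the start), and all 41 promoters found were placed on mm9 by exact match. The E-box CACGTG, which the clock factors CLOCK and BMAL1 can bind, was in 4 of the 41 promoters, or 9.76%, against 7.15% of 32851 promoters in the table. The antioxidant response element TGACNNNGC, bound by the products of *Nfe2l1* and *Nfe2l2*, was in 6, or 14.6%, against 12.4%. The CCAAT box, bound by NF-Y, was in 14, that of *Psmc3ip* included, or 34.1%, against 37.4%. The interferon-stimulated response element, GAAA with any 2 bases before a second GAAA, was in 4, or 9.76%, against 3.44%. These were the promoters of *Psmb3*, *Psmd4*, *Psmd9* and *Psme1*, and those of *Psmb8*, *Psmb9* and *Psmb10* held no match. Both strands were searched, each motif on its own whether or not it overlapped another, and a match is only a match of letters. The E-box matches were in *Psma4*, *Psmd9*, *Psmb10* and *Psme3*, of which *Psma4* and *Psmd9* passed the p and F24 limits, as did 21 of all 38 genes with a promoter. In the sequences that follow, printed 5′ to 3′ along the gene, capitals mark the motif matches. The 250 bases before the start of *Psma1* (chr7:121419631-121419880, mm9, minus strand), the alpha gene with the highest F24, hold CCAAT in both orientations, and the windows of *Psma4* (chr9:54798516-54798545, plus strand) and *Psmd9* (chr5:123678138-123678167, plus strand) hold the E-box.
Psma1: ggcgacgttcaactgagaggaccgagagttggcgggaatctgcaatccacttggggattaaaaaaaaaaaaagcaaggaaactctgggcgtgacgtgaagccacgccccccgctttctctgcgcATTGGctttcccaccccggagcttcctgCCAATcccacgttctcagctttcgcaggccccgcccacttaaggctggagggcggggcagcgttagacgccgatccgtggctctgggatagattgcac
Psma4: ctgcacagtcCACGTGggcagactgagccc
Psmd9: atctgaaaacCACGTGgtctatctagccgg

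Of the 7 genes of the constitutive beta ring 2, *Psmb4* and *Psmb6*, or 28.6%, passed the p and F24 limits, against 26.2% of all genes. None was rhythmic, against 19.1% of all genes. Of the 19 alternatives, *Psmb4* kept its call in 14 and *Psmb6* in 19. The difference from the alpha ring was not tested. *Psmb4* stood at 306, 269, 260.2, 242, 247 and 220.0 rpbp in series 1 and 266, 277, 258, 259, 229 and 258 rpbp in series 2 for ZT2, 6, 10, 14, 18 and 22. Its highest library was ZT2 of series 1, and its F24 was 0.501. The structural genes *Psmb2* and *Psmb3* and the trypsin-like catalytic *Psmb7* had F24 of 0.395, 0.422 and 0.429 and were not called. *Psmb1*, also structural, had the lowest F24 of all members at 0.028. It stood at 235, 215, 231, 217, 194 and 231 rpbp in series 1 and 208, 209.6, 225, 222, 216 and 230.1 rpbp in series 2, and ZT2 was the highest library of series 1 and the lowest of series 2. *Psmb5*, which encodes the chymotrypsin-like catalytic subunit (chr14:55232644-55236851, minus strand, mm9), had a low F24 of 0.141 and yet the lowest p of all members when times were compared in any shape. It stood at 189, 200.2, 152, 163, 199.8 and 108 rpbp in series 1 and 174, 204, 161, 132, 185 and 113 rpbp in series 2 for ZT2, 6, 10, 14, 18 and 22. Both ZT22 libraries lay under all 10 others, and ZT2, ZT6 and ZT18 were high in both series. In limma's F-test over the 6 times on log2(rpbp + 1), adjusted over all genes, its p was 0.00507, and the call held under every alternative tried. This test called 4 of the 43 proteasome genes, or 9.30%, against 20.4% of all genes: *Psmb5*, *Psmd11* (adjusted p 0.0222), *Psmd2* (0.0376) and *Psma1* (0.0409). At an unadjusted p under 0.05 it gave 13, or 30.2%, against 37.7%. The calls other than *Psmb5* were each lost under some alternative: *Psmb5* alone remained without ZT2 of series 1 or ZT6 of either series, and 2 calls remained without ZT2, ZT14 or ZT22 of series 2, ZT10 of series 1 or ZT18 of either series. In the GENCODE annotation 11.8% of the exon bases of *Psmb5* also belong to the microRNA gene *Mir686* on the same strand, so that reads there cannot be told apart. The 250 bases before its start (chr14:55236833-55237082, mm9, minus strand) hold 1 antioxidant response element, as does the start of *Psmb6* (chr11:70338840-70338869, plus strand), the caspase-like catalytic subunit.
Psmb5: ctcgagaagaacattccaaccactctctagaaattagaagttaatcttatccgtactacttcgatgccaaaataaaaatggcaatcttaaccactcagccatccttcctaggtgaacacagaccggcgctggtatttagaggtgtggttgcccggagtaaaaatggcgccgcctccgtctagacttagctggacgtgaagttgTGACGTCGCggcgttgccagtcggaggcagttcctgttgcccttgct
Psmb6: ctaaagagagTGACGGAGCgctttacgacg

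Of the 20 *Psmc* and *Psmd* genes 13, or 65%, passed the p and F24 limits, against 26.2% of all genes. They were 2 of 6 *Psmc* genes (*Psmc4* and *Psmc6*), or 33.3%, and 11 of 14 *Psmd* genes, or 78.6%. Among the 11 are *Psmd5*, *Psmd9* and *Psmd10*, which encode assembly chaperones of the ATPase ring and not subunits of the finished particle. *Psmd2*, which encodes the large scaffold subunit Rpn1 (chr16:20651725-20663487, plus strand, mm9), had the highest F24 of all members at 0.886. It stood at 167, 152, 130.5, 129, 131 and 153 rpbp in series 1 and 175, 155, 145, 133, 131 and 152 rpbp in series 2 for ZT2, 6, 10, 14, 18 and 22. Both series were highest at ZT2 and low at ZT14 and ZT18, and at ZT10 series 1 was already as low while series 2 was not. Its peak lay at 2.43 hr, and its amplitude was only 1.35. *Psmd3*, another non-ATPase, was similar in time, with a peak at 2.92 hr, F24 0.745 and an amplitude of 1.32. *Psmd4*, the ubiquitin receptor Rpn10, stood at 124, 110.0, 77.4, 93.2, 107 and 100.2 rpbp in series 1 and 107, 108, 96.4, 81.0, 93.5 and 112 rpbp in series 2. Its mean was highest at ZT2, its highest library was ZT2 in series 1 and ZT22 in series 2, and its lowest were 1 ZT10 library and 1 ZT14 library, with F24 0.650 and amplitude 1.60. *Psmd14*, the deubiquitinase Rpn11, stood at 86.6, 81.6, 73.7, 71.0, 64.9 and 73.5 rpbp in series 1 and 77.8, 77.4, 82.6, 56.2, 67.7 and 80.4 rpbp in series 2. Its lowest value was again at ZT14 of series 2, and its F24 was 0.632. *Psmd10* stood at 26.3, 22.4, 21.3, 17.2, 21.1 and 19.6 rpbp in series 1 and 24.0, 23.0, 23.9, 17.8, 22.3 and 25.8 rpbp in series 2, with F24 0.508 and amplitude 1.53. Its permutation p of 0.0451 was just under the limit, and it kept the call in 8 of the 19 alternatives. *Psmd1* (Rpn2), *Psmd7* (Rpn8) and *Psmd8* (Rpn12) passed the p and F24 limits with amplitudes under 1.5 and peaks at 1.49, 1.00 and 7.49 hr. They kept the call in 15, 18 and 12 of the 19 alternatives. The ATPase genes *Psmc4* and *Psmc6* peaked at 2.10 and 2.51 hr, and the 4 others, *Psmc1*, *Psmc2*, *Psmc3* and *Psmc5*, had F24 of 0.479, 0.282, 0.380 and 0.209. *Psmc1* missed the p limit by little, with a permutation p of 0.065. The lid genes *Psmd6*, *Psmd12* and *Psmd13* were not called, with F24 of 0.242, 0.397 and 0.085.

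*Psmd11*, which encodes the lid subunit Rpn6 (chr11:80242117-80286750, plus strand, mm9), had a different time. It stood at 35.3, 36.8, 26.1, 29.7, 38.3 and 42.0 rpbp in series 1 and 35.2, 35.4, 28.5, 29.5, 37.8 and 35.8 rpbp in series 2. The 4 libraries of ZT10 and ZT14 lay under all 8 others, at 26.1 to 29.7 rpbp against 35.2 to 42.0, in both series. Its cosine peaked at 22.77 hr with F24 0.678, the only peak in the dark among the 23 genes past the p and F24 limits. *Psmd9*, an ATPase chaperone, and *Psmd5*, another, peaked at 9.11 and 9.47 hr, late in the light phase. The other 20 of the 23, or 87.0%, peaked between 0 and 8 hr, against 35.5% of all genes past the same limits. This window was not planned in advance, and the difference was not tested. The 250 bases before the starts of *Psmd2* (chr16:20651475-20651724, mm9, plus strand) and *Psmd11* (chr11:80241867-80242116, mm9, plus strand), the members with the highest F24 and with the peak in the dark, held none of the 4 motifs.
Psmd2: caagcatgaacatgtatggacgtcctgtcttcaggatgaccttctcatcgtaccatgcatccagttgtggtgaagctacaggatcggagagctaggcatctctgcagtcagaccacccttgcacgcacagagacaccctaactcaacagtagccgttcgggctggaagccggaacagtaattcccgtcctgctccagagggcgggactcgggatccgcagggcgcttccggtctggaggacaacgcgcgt
Psmd11: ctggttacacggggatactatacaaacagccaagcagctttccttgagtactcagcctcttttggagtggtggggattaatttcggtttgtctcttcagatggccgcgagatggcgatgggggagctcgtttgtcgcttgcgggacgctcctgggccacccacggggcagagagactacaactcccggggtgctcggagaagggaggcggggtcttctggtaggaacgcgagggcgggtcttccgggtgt

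**Figure D3:**
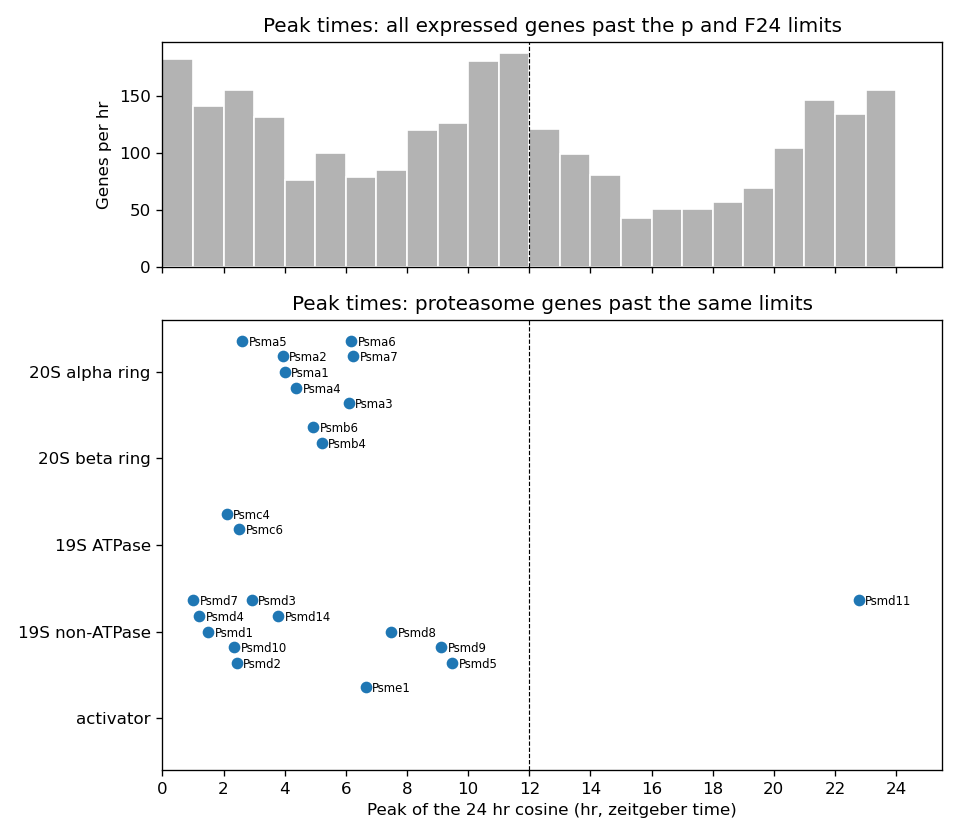
Peak of the 24 hr cosine (hr) for all expressed genes past the p and F24 limits (upper panel, genes per hr) and for the 23 proteasome genes past the same limits (lower panel, by class, where 19S non-ATPase holds all *Psmd* genes; vertical offsets only separate the names). Of these, 20 lie between 0 and 8 hr, *Psmd9* and *Psmd5* lie between 9 and 10 hr and *Psmd11* lies at 22.8 hr.

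Over all 43 genes the time-point mean was highest at ZT2 in 23, or 53.5%, against 29.2% of all genes. It was highest at ZT6 in 6 (20.3% of all genes), at ZT10 in 9 (14.9%), at ZT14 in 1 (15.4%), at ZT18 in 0 (8.51%) and at ZT22 in 4 (11.8%). The lowest mean was at ZT14 in 12, or 27.9%, against 15% of all genes, and at ZT18 in 16, or 37.2%, against 17.8%. The peaks of the separate series lay within 4 hr of each other in 35 of the 43 genes, or 81.4%, against 62.6% of all genes. The ZT2 libraries also stood apart in other ways. The hepatocyte marker *Alb* was at 50445 and 53126 rpbp there and at 93174 to 122523 rpbp in the 10 other libraries. Of the 6 hepatocyte markers, *Alb*, *Ttr* and *Tat* had their lowest time-point mean at ZT2, and *Apoa1*, *Apob* and *Serpina1a* had their highest there. The summed level of 7 Kupffer cell markers was 584 and 588 rpbp at ZT2 and 287 to 471 rpbp elsewhere. In whole liver, fewer cells of a type and less RNA per cell cannot be told apart, and the part of these differences in the proteasome values was not tested. With both ZT2 libraries left out, 17 of the 43 genes passed the p and F24 limits, against 22.5% of all genes, and with rescaled libraries 20 did, against 26%.

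**Figure D4:**
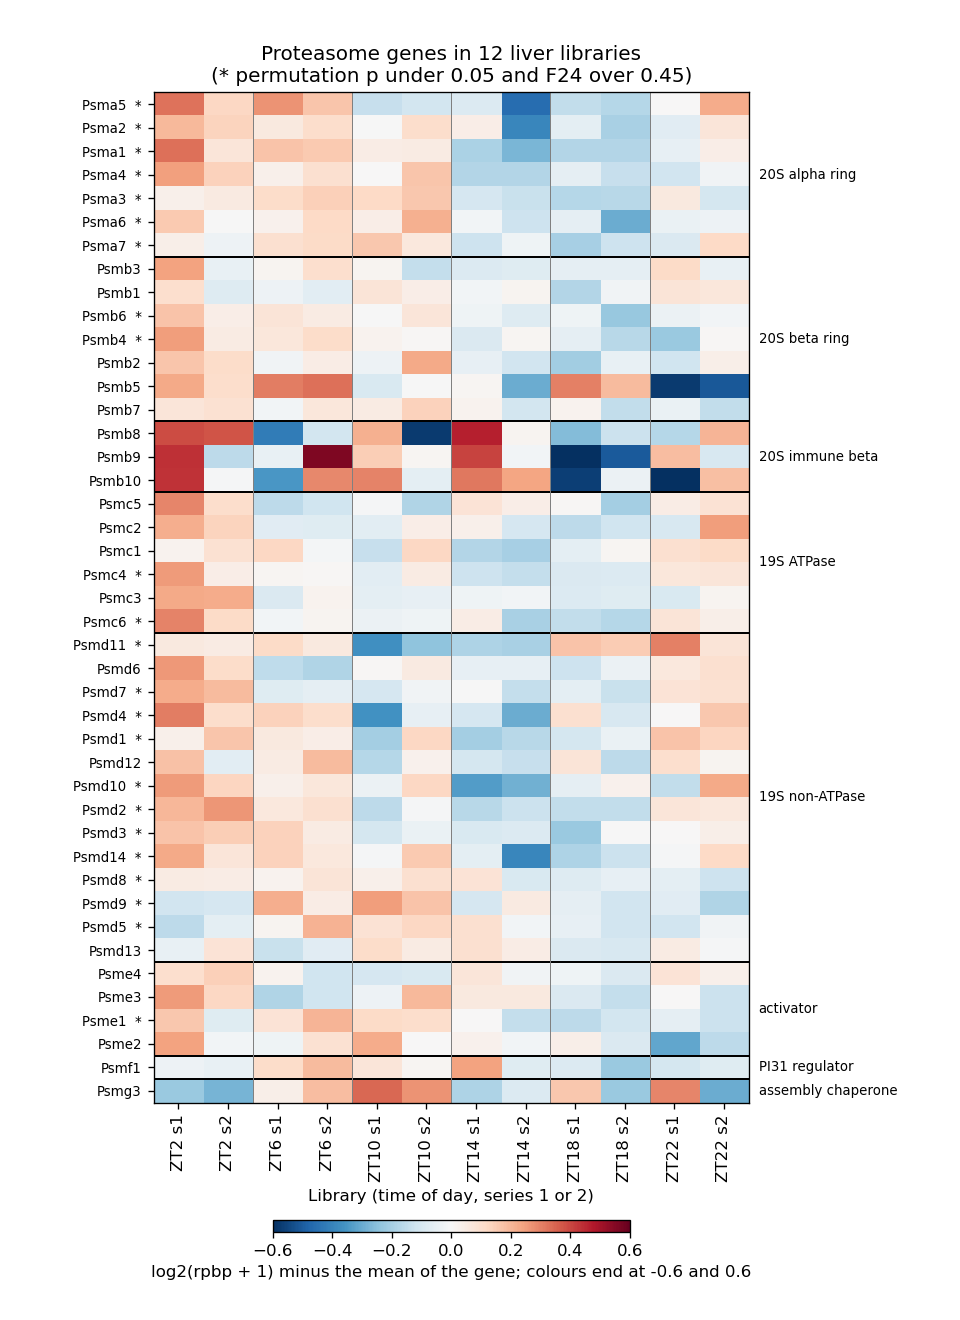
log2(rpbp + 1) of the 43 expressed proteasome genes minus the mean of each gene, in 12 libraries (s1 and s2 are the series), by class and by peak time within class; asterisks mark the 23 genes past the p and F24 limits. The ZT2 columns are mostly above the mean and the ZT14 and ZT18 columns mostly below it; *Psmd9*, *Psmd5* and *Psmg3* are below their mean at ZT2 and *Psmd11* and *Psmb5* are above it at ZT18.

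The light and dark phases were then compared directly, as the mean of ZT2, ZT6 and ZT10 minus that of ZT14, ZT18 and ZT22 in the limma fit. The log2 difference was above 0 in 38 of the 43 genes, or 88.4%, against 55.3% of all genes, and in all 14 constitutive core genes. At an adjusted p under 0.05, 4 genes were higher in the light, or 9.30%, against 2.27% of all genes, and all 4 belong to the core. *Psma1* averaged 114 rpbp in the light and 93.7 in the dark, a log2 difference of 0.27 ± 0.057 (SE, 6 libraries each, limma adjusted p = 0.0263). For *Psma3* the means were 141 and 122 rpbp, a log2 difference of 0.21 ± 0.048 (limma adjusted p = 0.0419). For *Psma4* they were 222 and 189 rpbp, a log2 difference of 0.23 ± 0.053 (limma adjusted p = 0.0412). In *Psma3* 5 of the 6 dark libraries, and in *Psma4* all 6, lay under every light library. *Psmb5* averaged 180.1 and 150.1 rpbp, a log2 difference of 0.29 ± 0.064 (limma adjusted p = 0.0324), and its phases overlapped, since ZT18 was high. No proteasome gene was higher in the dark in limma, at an adjusted p (3.02% of all genes) or at an unadjusted p under 0.05 (10.3%), while 18 of the 43 were higher in the light at an unadjusted p under 0.05, against 12.6%. The 4 adjusted calls were all lost without ZT2 of series 1, ZT6 of either series, ZT10 of series 2, ZT14 of series 2 or ZT18 of series 2, and 1 remained without ZT2 of series 2, ZT18 of series 1 or ZT22 of either series.

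The 3 immune subunit genes varied widely without a 24 hr component past the limits. They had amplitudes of 2.08 to 2.91, all over 1.5, as had 64.3% of all genes. None passed the p and F24 limits, against 26.2% of all genes. In limma's test in any shape none was called at an adjusted p under 0.05 (20.4% of all genes). Only *Psmb9* had an unadjusted p under 0.05 (37.7% of all genes). At ZT2, 6, 10, 14, 18 and 22, *Psmb8*, which replaces *Psmb5*, stood at 83.9, 47.4, 74.0, 88.3, 53.0 and 56.4 rpbp in series 1 and 83.1, 59.0, 42.5, 64.5, 58.2 and 73.5 rpbp in series 2. Libraries of the same time differed widely, as at ZT10, and its ratio to *Psmb5* ran from 0.24 to 0.65. *Psmb9*, which replaces *Psmb6*, stood at 54.4, 38.7, 44.4, 53.3, 20.4 and 45.6 rpbp in series 1 and 35.8, 59.4, 40.3, 39.4, 27.8 and 37.3 rpbp in series 2. Both ZT18 libraries were the lowest, and its ratio to *Psmb6* ran from 0.12 to 0.33. *Psmb10*, which replaces *Psmb7*, stood at 62.9, 36.2, 57.2, 58.0, 31.0 and 27.3 rpbp in series 1 and 46.1, 56.8, 44.5, 54.9, 45.2 and 52.6 rpbp in series 2. Its lowest libraries were ZT22 and ZT18 of series 1, and its ratio to *Psmb7* ran from 0.36 to 0.76. *Psmb6* stood at 196, 183, 174, 171, 170.3 and 169 rpbp in series 1 and 179, 179.6, 183, 165, 148 and 171 rpbp in series 2 and *Psmb7* at 83.0, 77.9, 81.6, 80.1, 80.0 and 76.6 rpbp in series 1 and 83.9, 82.6, 86.8, 73.0, 71.0 and 71.0 rpbp in series 2. In rpbp the constitutive partner was above its immune counterpart in every library for each pair. This comparison also depends on the exon length annotated for each gene. The summed level of 11 lymphocyte markers was 6.8 to 19 rpbp, and none of them reached a mean of 8 rpbp. The Kupffer cell sum, given above, was highest at ZT2, where *Psmb8* was at 83.9 and 83.1 rpbp. The highest *Psmb8* library was ZT14 of series 1, at 88.3 rpbp. *Psmb9* and *Psmb10* had their highest means at ZT6 and ZT14. The part of Kupffer cells in the immune subunit values was not tested. *Psmb8* and *Psmb9* lie on either side of *Tap1* in the MHC region (chr17:34334666-34338399, plus strand, and chr17:34318933-34324709, minus strand, mm9, the longer of 2 entries for *Psmb9*), and *Psmb9* shares 5.79% of its exon bases with *Tap1* on the opposite strand.

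**Figure D5:**
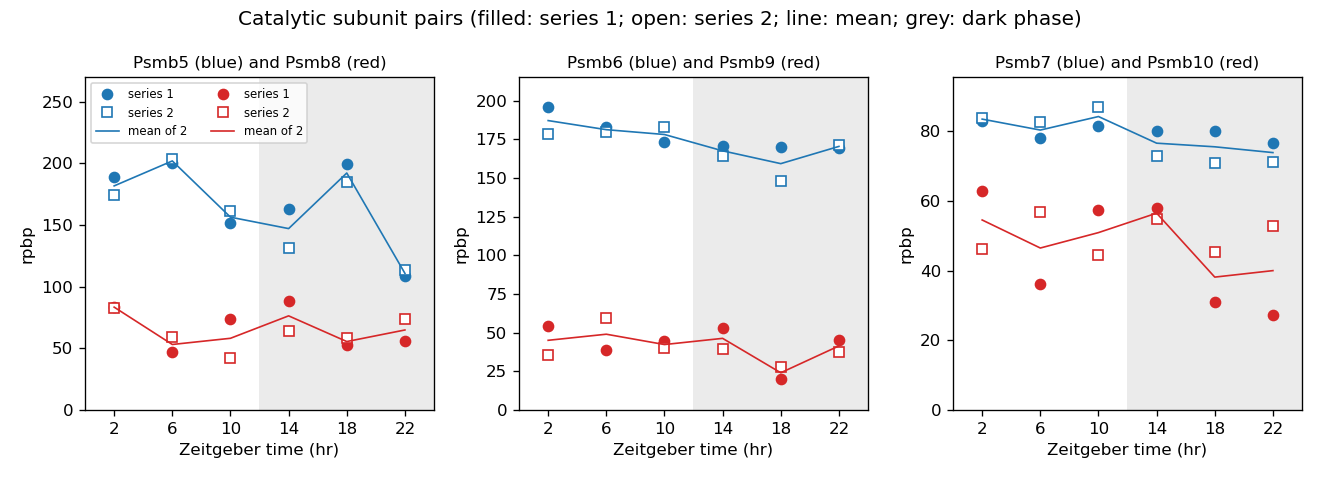
mRNA level (rpbp) against zeitgeber time (hr) for each catalytic beta subunit (blue) and the immune subunit that replaces it (red); filled circles are series 1, open squares series 2, lines the mean of both, grey the dark phase. The immune subunits stay below their partners in every library, and their within-time SD is 19.8% to 25.1% of the mean, against at most 6.91% for the partners.

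Among the activators, *Psme1* passed the p and F24 limits with F24 0.715, a peak at 6.65 hr and an amplitude of 1.29, and *Psme2* did not, with F24 0.320 and a permutation p of 0.182. *Psme1* stood at 153, 145, 149, 137, 123 and 132 rpbp in series 1 and 130.4, 158, 148, 124, 127 and 125 rpbp in series 2, and *Psme2* at 99.4, 82.5, 98.3, 85.5, 86.1 and 67.4 rpbp in series 1 and 82.9, 89.5, 84.1, 83.1, 78.9 and 75.2 rpbp in series 2. The time-point means of *Psme1* were higher at ZT2, ZT6 and ZT10 than at the dark times, and *Psme2* was lowest in both ZT22 libraries. Their products form 1 ring together, and over the 12 libraries the levels had a Pearson r of 0.59, given as a description. *Psme3* and *Psme4* had F24 of 0.039 and 0.359 and were not called. *Psmf1* stood at 14, 15.6, 15.2, 17.1, 13.5 and 13.3 rpbp in series 1 and 13.9, 16.5, 14.5, 13.6, 12.2 and 13.6 rpbp in series 2, with F24 0.474 and a permutation p of 0.0578. *Psmg3* had its lowest mean at ZT2, 22.7 rpbp, and its highest at ZT10, 33.8 rpbp, with F24 0.187.

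Correlations between proteasome genes over the libraries are given as a description, and the classes were not tested against each other. Over the 903 pairs of the 43 genes the median Pearson r was 0.33, against 0.021 over all pairs of expressed genes. It was 0.52 for the 14 constitutive core genes and 0.39 for the 20 *Psmc* and *Psmd* genes. Pairs of an immune subunit and a constitutive core gene had a median of 0.22, and the immune subunits among themselves had r of 0.35 to 0.61. All these values share the 12 libraries and their scaling. With rescaled libraries the medians were 0.23 for all members, 0.42 for the core, 0.33 for the *Psmc* and *Psmd* genes and 0.11 for an immune subunit with a core gene.

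Other genes of the pathway were read from lists that hold 47 genes, of which 41 were in the table and 40 were expressed. By the study's limits 6 of the 40 were rhythmic, or 15%, against 19.1% of all genes, and 13 passed p and F24 without the amplitude limit, or 32.5%, against 26.2%. Of 8 associated factors none was rhythmic and 3 passed p and F24. One of them was *Adrm1*, the ubiquitin receptor Rpn13, with 80.3 to 112 rpbp and its highest mean at ZT2. It had F24 0.741, a peak at 0.96 hr and an adjusted permutation p of 0.0457. *Pomp*, the core assembly chaperone, had F24 0.029. Of 15 genes for ubiquitin and its receptors 2 were rhythmic, the shuttle genes *Ubqln2* and *Ubqln4*, with peaks at 1.95 and 14.5 hr. The polyubiquitin gene *Ubb* ranged from 76.2 to 231 rpbp and was not called. Of 6 expressed genes for transcription of subunit genes, *Nfyb* was rhythmic (F24 0.777, peak at 1.27 hr). *Nfe2l1*, with a mean of 102 rpbp and F24 0.311, and *Nfe2l2*, with 61.7 rpbp and F24 0.027, were not called. Of 11 genes for MHC class I loading and interferon control, 3 were rhythmic, among them *Tapbp* and *Calr*, with peaks at 5.51 and 23.2 hr. *Adrm1* was the only 1 of the 40 with an adjusted permutation p under 0.05. The count of 6 was 3 without ZT2 of series 1 and 2 without ZT2 of series 2.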

How the data were processed

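Liver mRNA of 12 libraries was sequenced from TruSeq libraries. The authors aligned reads with TopHat to mm9 (CASAVA 1.8 is also in the submitters' processing notes), kept unique alignments, and deposited signal values in reads per base pair of flattened exons, without strand, scaled to 10000000 sequences. These values hold no read counts, the library totals that the study states were not used here, and no counting interval is given. Columns headed ZT20 were read as the ZT22 samples. The deposited F24, phase and p-value columns were not used.

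Values were multiplied by 4, the scale of the study's limits. F24 and permutation p (100000 orders, seed 1; smallest possible 1e-05) followed the study's criteria. limma 3.58.1 in R 4.3.3 (trend) was fitted to log2(rpbp + 1) with 6 times, with Benjamini-Hochberg adjustment over 10198 genes. Other steps used Python 3.11.15, numpy 2.4.6 and pandas 2.3.3. Scripts were tested on simulated data. Genes named in full were the rhythmic ones, those called in any shape, the catalytic pairs, *Psme1*, *Psme2*, and the extremes of level and F24. The members and gene lists were chosen with earlier results of these data known. Alternatives were other expression minimums, pseudocounts, scaling, adjustment and amplitude rules, a replicate block and left-out libraries. The count without an amplitude limit and the omission of both ZT2 libraries were added after seeing the data. Exons of 12 members overlap another GENCODE vM1 gene, and reads there cannot be told apart. *Paaf1*, *Akirin2*, *Uba1*, *Uba6*, *Erap1* and *Nlrc5* were not analysed here, and some genes of the lists are not reported here by name. Endothelial and red cell markers (*Hba-a1* not analysed here) summed to 146 to 176 and 295 to 857 rpbp.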

Additional observations from a re-analysis of the deposited data

How the results depend on the processing

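Of 43 proteasome genes, 7 were rhythmic by the study's limits. The count was 3 with rescaled libraries, 2 with the adjusted permutation p, 3 with limma's cosine fit at an adjusted p, 0 with the amplitude of the time-point means, 23 with no amplitude limit, 2 with both ZT2 libraries left out, and 0 to 7 when a library or a whole series was left out. The 23 genes past p and F24 became 4 with the adjusted permutation p, 4 with limma's cosine fit and 2 to 24 with a library or series left out, where the lowest counts, 4 and 2, are those of 1 series alone with 6 values per gene. The 4 genes called in any shape became 2 without limma's trend, 1 without both ZT2 libraries and 1 to 3 without a library. The 4 genes higher in the light became 2 with no expression minimum, 2 without the trend and 0 to 3 without a library, and were again 4 without both ZT2 libraries, 3 of them shared, where 10.8% of all genes were called in either direction, against 5.3% with them. The 6 rhythmic pathway genes became 0 with the adjusted permutation p, 2 with limma's cosine fit, 13 with no amplitude limit, 3 without both ZT2 libraries and 0 to 8 without a library or series. The cause of these changes was not tested. Replicate numbers did not pair the libraries: the correlation between times of the difference between series ran from -0.15 to 0.21, with 2 of 15 over 0.1. With a replicate block the counts were 7, 23 and 6 for the rhythm measures, 2 in any shape and 2 between phases. The precision is limited by 2 libraries per time, and by values that hold no read counts.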
